A study of Bos taurus with 3 samples.

Results

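Genes of glutathione and NRF2-linked defence were followed across the epithelial cells of the cow rumen, with *GSTA1* as the reference gene. The 10 genes were *GSTA1*, *GSTP1*, *GPX1*, *GPX2*, *GCLC*, *GCLM*, *GSR*, *NQO1*, *TXNRD1* and *NFE2L2*, chosen with earlier results of these data known, and 9 of them had a row in the count matrix, in which 18326 genes had at least 1 UMI. A UMI (unique molecular identifier) marks 1 captured transcript, so that PCR copies are not counted again. No row carried the symbol *GPX2*, which was not analysed here. The identifiers were ENSBTAG00000021516 for *GSTA1*, ENSBTAG00000054195 for *GPX1*, ENSBTAG00000015571 for *GCLC*, ENSBTAG00000007842 for *GCLM*, ENSBTAG00000007115 for *GSR*, ENSBTAG00000020632 for *NQO1*, ENSBTAG00000013912 for *TXNRD1* and ENSBTAG00000019255 for *NFE2L2*. The symbol *GSTP1* had 2 rows, which are given apart from each other because the files do not show which identifier belongs to which row.

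Glutathione is the main soluble thiol of animal cells. GCLC and GCLM, the catalytic and the modifier subunit of glutamate-cysteine ligase, make its first precursor, glutathione peroxidases such as GPX1 use it to reduce peroxides, glutathione reductase (GSR) returns the oxidised form, and glutathione transferases such as GSTA1 and GSTP1 couple it to electrophiles. *NFE2L2* encodes NRF2, the transcription factor that KEAP1 holds low in resting cells and that can raise the transcription of many of these genes, of *TXNRD1* (thioredoxin reductase) and of *NQO1* (a quinone reductase).

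The cells came from the rumen of 3 adult Holstein dairy cows in lactation, all under 1 condition and with 1 library per cow. The study stripped the muscle layers, freed the cells with enzymes and kept epithelial cells. The 3 libraries held 3369, 7401 and 9958 cells with medians of 10342, 12051 and 9747 UMIs per cell, and 237958901 UMIs in all. Cows were told apart by barcode suffix, read as the cow number, and 35 barcode sequences occurred in at least 2 libraries.

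The files give no cell type for each cell, so cells were set apart by 4 genes that are no members. *GJA1* encodes the gap junction protein connexin 43, *IGFBP5* a binding protein of insulin-like growth factors and *DLK2* a transmembrane protein related to DLK1, while *BPIFA2C* belongs to a family of secreted BPI-fold proteins. BPIFA2C-rich cells had at least 10 *BPIFA2C* UMIs per 10000 UMIs of the cell, and there were 270 of them. The remaining cells were GJA1+ IGFBP5+ (1148), GJA1+ IGFBP5- (294), IGFBP5+ GJA1- (6858) or DLK2+ (3349) when they had at least 1 UMI of the named gene and none of the others, and 4344 cells had none of the 3. A further 4465 mixed cells had *DLK2* together with *GJA1* or *IGFBP5* and entered no comparison. At 1 UMI the gates are loose, since *IGFBP5* alone was found in 60.6% of cells, and 209 cells lay between 5 and 10 *BPIFA2C* UMIs per 10000.

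The classes also differed in depth. The median was 16321 UMIs in GJA1+ IGFBP5+ cells and 8623 in DLK2+ cells, and the median mitochondrial share of UMIs was 16.4% and 9.65%. In BPIFA2C-rich cells, 23.0% of cells had a mitochondrial share under 2%, against 0.269% of DLK2+ cells. Epithelial keratins (*KRT5*, *KRT14* and *KRT19*) summed to between 45.8 and 151 UMIs per 10000 over the 6 classes and 3 cows. Of the 5 fibroblast markers, 4 had rows and summed to at most 0.01001 per 10000 in any class and cow, the 4 smooth muscle markers to at most 0.0534 and the 3 endothelial markers to at most 0.0635. As means of 3 cows, the 5 immune markers summed to 0.139 in GJA1+ IGFBP5+ cells and 0.413 in DLK2+ cells. The 4 cycling markers (*MKI67*, *TOP2A*, *RRM2* and *TROAP*) summed to 1.95, 1.14 and 3.46 in GJA1+ IGFBP5- cells of cows 1, 2 and 3 and to 0.585, 0.214 and 2.35 in DLK2+ cells, and were thus higher in each cow. Markers of channel-gap-like spinous cells (*KRT10*, *S100A8*, *KRT6A*, *TMEM79*, *FABP4* and *TM4SF1*) summed to means of 22.4 in GJA1+ IGFBP5+, 28.4 in GJA1+ IGFBP5-, 69.9 in BPIFA2C-rich and 3.47 in DLK2+ cells. In BPIFA2C-rich cells the sum was 33.3, 48.2 and 128 in cows 1, 2 and 3, and most of it was *KRT6A* (mean 36.0) and *S100A8* (27.5). *KRT10* had means of 0.367 there and 0.208 in DLK2+ cells. The part of these differences in depth and markers in the results was not tested.

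*GSTA1* was the member that differed most between the classes. In DLK2+ cells it had 0.247, 0.0591 and 0.298 UMIs per 10000 in cows 1, 2 and 3. In GJA1+ IGFBP5+ cells it had 4.89, 5.45 and 16.9, in GJA1+ IGFBP5- cells 6.56, 6.41 and 23.1, and in BPIFA2C-rich cells 7.31, 11.1 and 28.1. These 3 classes lay above every DLK2+ value, and within each of them cow 3 was highest. IGFBP5+ GJA1- cells had 0.975, 0.582 and 2.78 and cells with none of the 3 genes 0.709, 0.324 and 2.12, both between the other classes and again highest in cow 3.

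**Figure D1:**
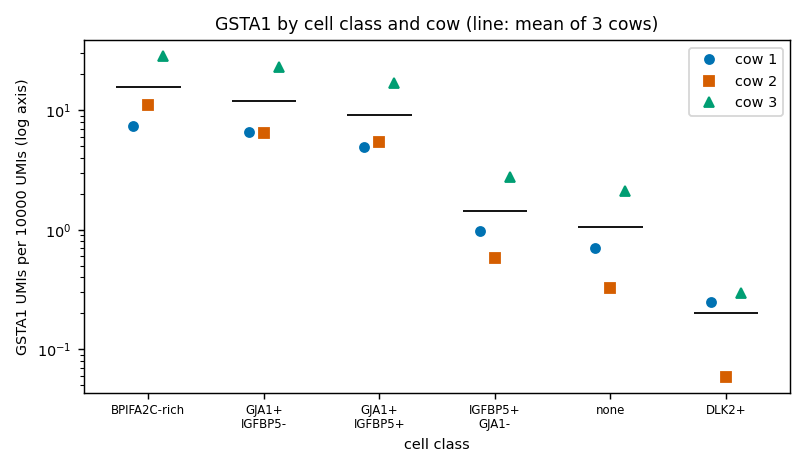
*GSTA1* UMIs per 10000 UMIs (log axis) in the 6 cell classes, 1 symbol per cow, with the mean of the 3 cows as a line. BPIFA2C-rich cells had the highest mean, 15.5, and DLK2+ cells the lowest, 0.201, and the classes held the same order in each cow.

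The order of the classes was the same in all 3 cows, from BPIFA2C-rich through GJA1+ IGFBP5-, GJA1+ IGFBP5+, IGFBP5+ GJA1- and none to DLK2+. The ranges over cows did not overlap between GJA1+ IGFBP5+ and IGFBP5+ GJA1- cells, nor between cells with none and DLK2+ cells. The other 3 neighbours overlapped. Over 3 cows, the exact two-sided permutation test of paired differences gave p = 0.25 for each of the 5 steps, the smallest p that 3 pairs allow.

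UMI counts summed per cow and class were tested in edgeR's quasi-likelihood test with the cow as a block. All 6 classes entered 1 fit and shared 1 estimate of the spread. Its p values thus do not rest on the spread of 3 paired differences alone. The SE was derived from the log2 fold change and the F statistic of the test. A gene was called when its log2 fold change exceeded 0.25 in size with an adjusted p under 0.05. On this scale *GSTA1* was higher than in DLK2+ cells by 5.75 ± 0.29 (log2, SE) in GJA1+ IGFBP5+ cells, by 5.95 ± 0.29 in GJA1+ IGFBP5- cells, by 6.57 ± 0.30 in BPIFA2C-rich cells and by 2.96 ± 0.27 in IGFBP5+ GJA1- cells. The edgeR adjusted p was 1.1e-13, 2.87e-13, 1.65e-14 and 2.39e-08. With no block for the cow, the call in IGFBP5+ GJA1- cells was lost (adjusted p = 0.149). All 4 comparisons share the DLK2+ sums. Within cows, the ratio to DLK2+ cells ran from 19.8 to 92.3 for GJA1+ IGFBP5+ cells, from 26.6 to 108 for GJA1+ IGFBP5- cells and from 29.6 to 187 for BPIFA2C-rich cells, lowest in cow 1 and highest in cow 2 each time. Ratios and folds rest on the low DLK2+ level, to which 487 *GSTA1* UMIs contributed. The part of free RNA in that level was not tested.

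The share of cells with a *GSTA1* UMI was also compared at 1 depth. After each cell was thinned to 3000 UMIs and gated again, it was 82.2% ± 10.1 (SD, n = 3 cows) in BPIFA2C-rich, 68.3% ± 12.0 in GJA1+ IGFBP5-, 67.1% ± 20.3 in GJA1+ IGFBP5+, 18.1% ± 7.81 in IGFBP5+ GJA1- and 4.45% ± 2.52 in DLK2+ cells. The 2 GJA1+ classes had no common order, since in cow 3 the share was 90.5% in GJA1+ IGFBP5+ and 80.0% in GJA1+ IGFBP5- cells. Without thinning the shares were 93.2%, 71.8%, 87.7%, 30.8% and 7.91%. Gating again moves cells between classes, since thinning can remove marker UMIs. GJA1+ IGFBP5- held 389 cells after thinning and 294 before, and GJA1+ IGFBP5+ held 405 and 1148. The results given below after thinning are for cells gated in this way. No class known to lack *GSTA1* was at hand, so DLK2+ cells give the lowest share measured.

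Among the enzymes that use and restore glutathione, *GPX1* and *GSR* were both higher in the classes rich in *GSTA1*. *GPX1* had 6.80, 10.5 and 7.77 UMIs per 10000 in DLK2+ cells of cows 1, 2 and 3 and 9.73, 15.5 and 10.0 in GJA1+ IGFBP5+ cells. It was higher within each cow, although the 2 ranges overlapped because cow 2 was above the others in both classes. The log2 difference was 0.66 ± 0.09 (SE; edgeR adjusted p = 1.36e-06), against 0.38 ± 0.09 in GJA1+ IGFBP5- cells (adjusted p = 0.00217), 0.49 ± 0.09 in BPIFA2C-rich cells (adjusted p = 0.000117) and 0.31 ± 0.09 in IGFBP5+ GJA1- cells (adjusted p = 0.0149). Without cow 2 the adjusted p was 0.0662 in GJA1+ IGFBP5- and 0.288 in IGFBP5+ GJA1- cells. With scaling by total UMIs *GPX1* was not called in IGFBP5+ GJA1- cells (adjusted p = 0.0845). With no block it was called in none of the 4 comparisons by edgeR, with adjusted p between 0.317 and 1.00.

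*GSR* separated the classes more cleanly. DLK2+ cells had 1.48, 1.13 and 1.55 UMIs per 10000, GJA1+ IGFBP5+ cells 2.20, 1.63 and 2.50, GJA1+ IGFBP5- cells 2.96, 2.18 and 2.78, and BPIFA2C-rich cells 2.57, 2.30 and 2.99. Every value of the 3 classes was above every DLK2+ value, and cow 2 was lowest in each class. The log2 differences were 0.78 ± 0.08, 0.94 ± 0.08 and 1.13 ± 0.08 (SE), with edgeR adjusted p of 1.38e-08, 7.29e-09 and 1.19e-10. In IGFBP5+ GJA1- cells *GSR* was 0.48 ± 0.08 higher (adjusted p = 5.94e-05), with ratios of 1.29, 1.23 and 1.32 in the 3 cows, a call lost with no block (adjusted p = 0.325).

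*GCLM*, the modifier subunit of glutamate-cysteine ligase, had 0.440, 0.496 and 0.568 UMIs per 10000 in GJA1+ IGFBP5+ cells and 0.433, 0.247 and 0.228 in DLK2+ cells. The DLK2+ cells of cow 1 were far above those of cows 2 and 3, so that the ratio was 1.02 in cow 1 but 2.01 and 2.49 in the other cows. The log2 difference was 0.98 ± 0.14 (SE; edgeR adjusted p = 4.35e-06).

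In GJA1+ IGFBP5- and BPIFA2C-rich cells *GCLM* was called higher (0.56 ± 0.21 and 0.68 ± 0.21, SE, edgeR adjusted p of 0.0423 and 0.011), yet per 10000 UMIs it was lower than in DLK2+ cells in cow 1, with ratios of 0.737 and 0.879. With scaling by total UMIs these 2 calls were lost (adjusted p of 0.0698 and 0.0903), as they were without the top 5% of UMIs (0.0861 and 0.0593), with no block (0.222 and 0.0631) and without cow 2 (0.316 and 0.157). The call in GJA1+ IGFBP5- cells was also lost with DESeq2 (0.0542), without cells of low mitochondrial share (0.0789) and without cow 3 (0.36). That in BPIFA2C-rich cells was also lost after thinning (0.0842) and at the limit of 30 *BPIFA2C* UMIs per 10000, where the log2 difference was 0.19 (adjusted p = 0.756). In IGFBP5+ GJA1- cells *GCLM* differed by 0.06 (95% interval -0.22 to 0.35) and was not called, whereas with *IGFBP5* positive at 5 or more UMIs it was called higher (0.41, adjusted p = 0.0444).

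*GCLC*, the catalytic subunit, was called in none of the 4 comparisons by edgeR. It was sparse, with 3310 UMIs in all cells. DLK2+ cells had 0.107, 0.184 and 0.0930 UMIs per 10000 and GJA1+ IGFBP5+ cells 0.0955, 0.143 and 0.134, which overlap. The 95% interval of the log2 difference to DLK2+ cells was -0.21 to 0.41 in GJA1+ IGFBP5+, -0.040 to 0.89 in GJA1+ IGFBP5-, -0.048 to 0.47 in IGFBP5+ GJA1- and -0.52 to 0.52 in BPIFA2C-rich cells. Whether *GCLC* and *GCLM* differ from each other in these comparisons was not tested. Without cow 2, *GCLC* was called higher in GJA1+ IGFBP5- cells (0.86, adjusted p = 0.0305, against 0.43 and 0.165 with all cows).

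*TXNRD1* showed the largest increase over DLK2+ cells after *GSTA1* among the members in these comparisons. Thioredoxin reductase had 0.0994, 0.0797 and 0.135 UMIs per 10000 in DLK2+ cells, 0.293, 0.278 and 0.269 in GJA1+ IGFBP5+ cells, 0.271, 0.231 and 0.399 in GJA1+ IGFBP5- cells and 0.350, 0.236 and 0.362 in BPIFA2C-rich cells. The DLK2+ values lay below all values of these 3 classes. The log2 differences were 1.62 ± 0.14, 1.57 ± 0.20 and 1.83 ± 0.20 (SE), with edgeR adjusted p of 1.15e-09, 1.53e-06 and 6.02e-08. IGFBP5+ GJA1- cells had 0.209, 0.158 and 0.241, also above every DLK2+ value, and were 1.06 ± 0.13 higher (adjusted p = 1.73e-06).

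For *NQO1* the cows differed as much as the classes. In GJA1+ IGFBP5- cells it had 0.142, 0.264 and 0.544 UMIs per 10000 in cows 1, 2 and 3, and in DLK2+ cells 0.149, 0.194 and 0.181. Cow 1 showed almost no difference and cow 3 a ratio of 3.00. The log2 difference was 0.90 ± 0.23 (SE; edgeR adjusted p = 0.00417), and without cow 3 it was 0.28 with an adjusted p of 0.465. In GJA1+ IGFBP5+ cells *NQO1* had 0.168, 0.234 and 0.457 and was 0.82 ± 0.17 higher than in DLK2+ cells (adjusted p = 0.00026), with ratios of 1.13, 1.21 and 2.52. BPIFA2C-rich cells (0.82 ± 0.25, adjusted p = 0.0118) and IGFBP5+ GJA1- cells (0.58 ± 0.15, adjusted p = 0.00638) were higher as well. With no block *NQO1* was called in none of the 4 comparisons by edgeR, with adjusted p between 0.211 and 0.948. For BPIFA2C-rich cells the call was lost after thinning to 3000 UMIs (0.12, adjusted p = 0.857) and at a limit of 30 *BPIFA2C* UMIs per 10000 (0.57, adjusted p = 0.328).

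**Figure D2:**
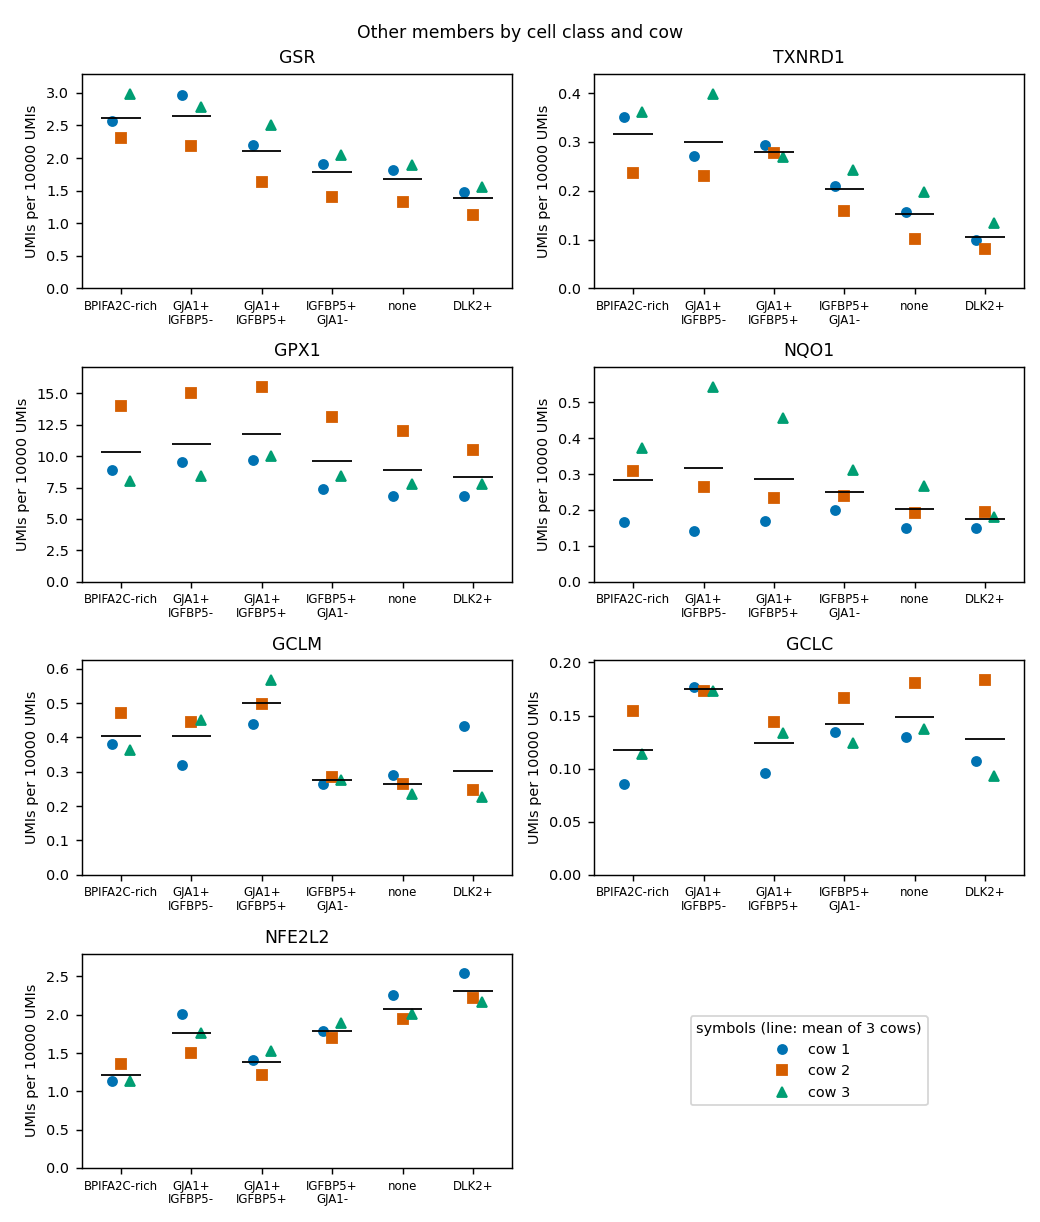
UMIs per 10000 UMIs of *GSR*, *TXNRD1*, *GPX1*, *NQO1*, *GCLM*, *GCLC* and *NFE2L2* in the 6 cell classes, 1 symbol per cow, with the mean of the 3 cows as a line. Mean *TXNRD1* was 0.105 in DLK2+ and 0.316 in BPIFA2C-rich cells, whereas mean *NFE2L2* was 2.31 and 1.21.

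The 2 rows of *GSTP1*, the pi-class transferase, went in opposite directions. The second row had 182695 UMIs in all cells and the first 4346. Genes with near-identical copies can share or lose reads in counting, so both rows are uncertain. The second row had 4.00, 4.40 and 8.32 UMIs per 10000 in DLK2+ cells and 6.27, 8.08 and 15.9 in GJA1+ IGFBP5+ cells, with cow 3 highest in both. It was higher by 1.01 ± 0.08 (log2, SE; edgeR adjusted p = 2.87e-10), and by 0.73 ± 0.08 in GJA1+ IGFBP5- cells, 0.64 ± 0.08 in BPIFA2C-rich cells and 0.50 ± 0.08 in IGFBP5+ GJA1- cells, all of which were called. With no block none of these 4 calls held, with edgeR adjusted p between 0.172 and 1.00.

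The first row had 0.107, 0.184 and 0.275 UMIs per 10000 in DLK2+ cells and 0.0250, 0.0272 and 0.0621 in BPIFA2C-rich cells. The BPIFA2C-rich values lay below every DLK2+ value, and the log2 difference was -2.09 ± 0.28 (SE; edgeR adjusted p = 1.79e-06), on 14 UMIs in the BPIFA2C-rich cells. After thinning to 3000 UMIs it was -1.45 with an adjusted p of 0.079. In GJA1+ IGFBP5- cells the first row was lower (-0.78 ± 0.20, adjusted p = 0.00383), which turned to 0.03 after thinning (adjusted p = 0.965) and was not called without cow 3 (adjusted p = 0.158) or with no block (0.432). In GJA1+ IGFBP5+ cells it was lower (-0.30 ± 0.12, adjusted p = 0.0422). That call was lost with DESeq2 (adjusted p = 0.061), with no block (0.689), with no filter on low counts (0.0818), with markers at 2 UMIs (0.121) or *IGFBP5* at 5 (0.136), without the top 5% of UMIs (0.17), after thinning (0.355), and without cow 2 (0.33) or cow 3 (0.287).

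**Figure D3:**
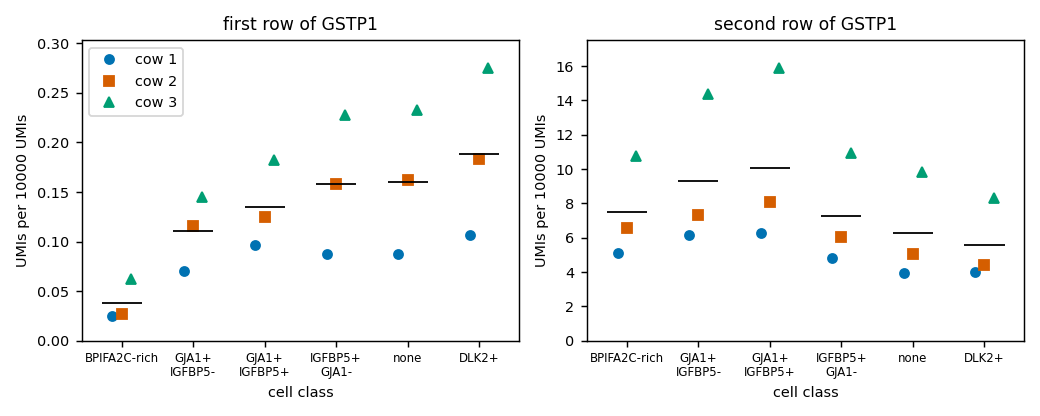
UMIs per 10000 UMIs of the first and the second *GSTP1* row in the 6 cell classes, 1 symbol per cow, with the mean of the 3 cows as a line. From DLK2+ to BPIFA2C-rich cells the mean of the first row went from 0.189 to 0.0381 and that of the second from 5.57 to 7.48.

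*NFE2L2*, the gene of NRF2, was lower in the classes rich in *GSTA1*. DLK2+ cells had 2.54, 2.22 and 2.17 UMIs per 10000. GJA1+ IGFBP5+ cells had 1.41, 1.21 and 1.53, GJA1+ IGFBP5- cells 2.01, 1.50 and 1.76, and BPIFA2C-rich cells 1.14, 1.35 and 1.14. All 9 of these values lay below the 3 DLK2+ values. The log2 differences were -0.56 ± 0.09, -0.39 ± 0.10 and -0.73 ± 0.10 (SE), with edgeR adjusted p of 1.48e-05, 0.00371 and 3.13e-06. Without cow 2 the difference in GJA1+ IGFBP5- cells was -0.27 and was not called (adjusted p = 0.121), nor was it with no block (0.123). In IGFBP5+ GJA1- cells it was -0.24 ± 0.09 (adjusted p = 0.0485), within the fold limit of 0.25 and so not called, whereas it was called with DESeq2 (-0.26), with total-UMI scaling (-0.36), with markers at 2 UMIs (-0.33) or *IGFBP5* at 5 (-0.38) and after thinning (-0.26). These are mRNA levels, and the amount or place of the NRF2 protein was not measured.

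**Figure D4:**
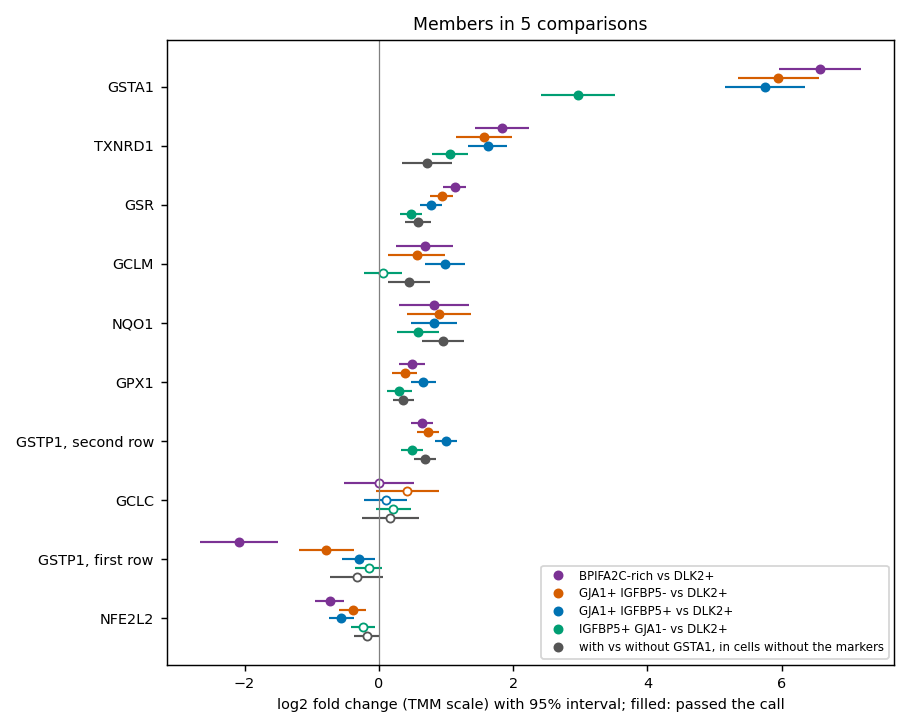
Log2 fold change with its 95% interval (TMM scale) for the members in 4 comparisons with DLK2+ cells and in the comparison of cells with and without *GSTA1* UMIs among those without the marker genes. Filled points passed the call, and *GSTA1* lay between 2.96 and 6.57 while the called values of *NFE2L2* lay between -0.73 and -0.39.

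Counted over the 9 members, with the first row for *GSTP1*, 6 were higher and 2 lower in GJA1+ IGFBP5+ than in DLK2+ cells. Over all 10429 genes tested, 23.7% were called higher and 24.3% lower, 48.0% in all. In GJA1+ IGFBP5- cells 6 members were higher and 2 lower, beside 15.3% and 15.1% of all genes (30.4% in all), and in BPIFA2C-rich cells 6 and 2, beside 19.2% and 20.0% (39.2% in all). In IGFBP5+ GJA1- cells 5 were higher and none lower, beside 11.7% and 9.67% (21.4% in all). With the second *GSTP1* row in place of the first, the counts were 7 higher and 1 lower in GJA1+ IGFBP5+, GJA1+ IGFBP5- and BPIFA2C-rich cells, and 6 and 0 in IGFBP5+ GJA1- cells. With the first row, the median log2 difference of the 9 members was 0.78, 0.56, 0.68 and 0.31 in this order, and that of all genes -0.03, -0.06, -0.09 and -0.01.

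Scaling moved these shares in 3 of the 4 comparisons. With total UMIs in place of TMM, the median of all genes moved to -0.21 in GJA1+ IGFBP5+, -0.30 in BPIFA2C-rich and -0.13 in IGFBP5+ GJA1- cells, and the share of calls that were higher moved from 49.4% to 31.4%, from 49.0% to 30.7% and from 54.9% to 30.2%. In GJA1+ IGFBP5- cells the median was -0.078 and the share moved from 50.3% to 48.8%. *GSTA1*, *TXNRD1*, *GSR*, *NQO1*, *GPX1* and the second *GSTP1* row were called higher in GJA1+ IGFBP5+, GJA1+ IGFBP5- and BPIFA2C-rich cells under both scalings. *NFE2L2* was called lower in the same classes under both.

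Among GJA1+ cells, those with and without *IGFBP5* were compared directly. GJA1+ IGFBP5- cells were shallower, with a median of 13062.5 UMIs against 16321 in GJA1+ IGFBP5+ cells (9500 against 17588 in cow 1). A mitochondrial share under 2% was found in 8.16% and 2.44% of their cells (22.0% and 3.27% in cow 1). The part of these differences in the comparison was not tested. *GSTA1* was lower in GJA1+ IGFBP5+ than in GJA1+ IGFBP5- cells per 10000 UMIs in each cow (ratios of 0.745, 0.851 and 0.735). On the TMM scale, however, the difference was -0.19 (95% interval -0.66 to 0.27, edgeR adjusted p = 0.81). None of the 9 members was called by edgeR, beside 0.652% of all genes, and none by DESeq2, with 3 members at an unadjusted p under 0.05. These were *GPX1* (0.28), *GCLM* (0.42) and the first *GSTP1* row (0.48), all on the log2 scale. The second *GSTP1* row, not counted among the 9 here, differed by 0.27 (edgeR unadjusted p = 0.00276, adjusted p = 0.129). The outcome depends on the gate. After thinning and gating again, *GSTA1* was called lower in GJA1+ IGFBP5+ cells (-0.71, adjusted p = 0.0488). The classes then held other cells, with 389 cells in GJA1+ IGFBP5- and 405 in GJA1+ IGFBP5+. Of these GJA1+ cells, 13.7% of those with a *GSTA1* UMI and 15.4% of those without were GJA1+ IGFBP5- on all UMIs. With *IGFBP5* positive at 5 or more UMIs and negative at 0 or 1, 3 rows were called higher. These were *GPX1* (0.35, adjusted p = 0.0198), *GCLM* (0.62, adjusted p = 0.0375) and the second *GSTP1* row (0.30, adjusted p = 0.0209). Of all genes called, 77.9% were higher with TMM and 25.0% with total UMIs.

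To ask which members go with *GSTA1* among cells alike in markers, cells with a *GSTA1* UMI were set against cells without one, within a class and at 3000 UMIs per cell. *GSTA1* makes this split and was not tested. Among cells with none of the 3 genes and few *BPIFA2C* UMIs at this depth, 1551 had a *GSTA1* UMI and 9397 had none. *GSR* had 2.33, 1.74 and 2.46 UMIs per 10000 in the first and 1.69, 1.21 and 1.67 in the second, so that it was higher in each cow. The log2 difference was 0.58 ± 0.09 (SE; edgeR adjusted p = 1.24e-05).

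*NQO1* had the largest difference of the members in these cells, 0.96 ± 0.15 (log2, SE; edgeR adjusted p = 1.71e-05), with 0.255, 0.281 and 0.452 UMIs per 10000 on the *GSTA1* side and 0.155, 0.193 and 0.212 on the other. *TXNRD1* (0.71 ± 0.18, adjusted p = 0.0046), *GCLM* (0.45 ± 0.15, adjusted p = 0.039), *GPX1* (0.37 ± 0.08, adjusted p = 0.000848) and the second *GSTP1* row (0.68 ± 0.08, adjusted p = 5.81e-08) were higher too. In cow 1, however, *TXNRD1* had 0.119 UMIs per 10000 with *GSTA1* and 0.138 without, and *GCLM* had 0.306 and 0.318. Without cow 3, *GCLM* (adjusted p = 0.938), *NQO1* (0.138) and *TXNRD1* (0.262) were not called. With DESeq2, *TXNRD1* (0.201) and *GCLM* (0.488) were not called either, and *GCLM* was also lost with total UMIs (0.106), with *GSTA1* at 2 UMIs (0.22) and with no filter on low counts (0.0746). With no block the calls in this split were lost, with adjusted p between 0.287 and 0.835 for the 5 members and 0.632 for the second *GSTP1* row. *NFE2L2* (-0.18), *GCLC* (0.17) and the first *GSTP1* row (-0.33) were not called.

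In this split 5 of 8 members were thus higher and none lower (6 and 0 with the second *GSTP1* row in place of the first), beside 11.0% and 7.67% of all 8545 genes tested (18.6% in all). With total UMIs the share of calls that were higher moved from 58.9% to 48.7%. For this split, cells without the markers means cells in which none was found at 3000 UMIs per cell. With all UMIs used, 31.8% of the cells with *GSTA1* and 38.3% of those without still had none of the 3 genes. The 2 sides were not alike at full depth. Of the cells with *GSTA1*, 11.3% were GJA1+ IGFBP5+ and 6.06% GJA1+ IGFBP5- when all their UMIs were used, against 1.05% and 0.585% of those without. DLK2+ cells made up 3.16% of the first and 16.2% of the second, and IGFBP5+ GJA1- cells 39.97% and 30.88%, so that the split in part repeats the comparison of classes. The channel-gap-like markers summed to 14.9 ± 2.84 (SD, n = 3 cows) UMIs per 10000 with *GSTA1* and 4.81 ± 0.711 without. Gated and split on all UMIs, the same 5 members were called higher, beside 9.04% of all 9324 genes. There the depth of the sides was not made equal. The median was 9947, 14442 and 10942.5 UMIs per cell with *GSTA1* in cows 1, 2 and 3 and 6178, 10219 and 8316 without.

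Among GJA1+ cells, 541 had a *GSTA1* UMI at this depth and 253 had none. On all their UMIs, GJA1+ IGFBP5+ cells made up 74.1% of the first and 55.7% of the second, and mixed cells, which also had *DLK2*, 9.61% and 26.1%, so that this split too repeats in part a difference of classes. No member was called by edgeR or by DESeq2 among the 5 tested, beside 3.53% of all 3197 genes (1.94% higher and 1.60% lower), and 1 member had an unadjusted p under 0.05. It was *NQO1*, with 0.295, 0.382 and 0.605 UMIs per 10000 on the *GSTA1* side and 0.194, 0.143 and 0.250 on the other. The log2 difference was 1.04 ± 0.42 (SE) with an adjusted p of 0.196, and it rests on 14 UMIs in the cells without *GSTA1*. *GSR* differed by 0.33 (95% interval -0.05 to 0.70) and *GPX1* by 0.18 (-0.06 to 0.43). *TXNRD1*, *GCLC* and the first *GSTP1* row were too sparse to be tested at this depth. On all UMIs *TXNRD1* (0.84 ± 0.22, adjusted p = 0.015) and the second *GSTP1* row (0.37 ± 0.08, adjusted p = 0.00309) were called higher with *GSTA1*, but there the depth of the sides was not made equal. Whether the 2 splits differ was not tested. The channel-gap-like markers summed to 25.4 ± 6.45 (SD, n = 3 cows) with *GSTA1* and 14.4 ± 2.29 without.

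Likeness to *GSTA1* was described by Pearson's r of log2 CPM over 18 sums, 6 classes in 3 cows, after the mean of each cow was taken out. These points share libraries and the order of the classes, and they are not independent. *GSR* (r = 0.96) and *TXNRD1* (0.94) were most like *GSTA1* among the members, with 1.06% and 2.10% of 10428 genes more alike. The second *GSTP1* row had 0.87, *GPX1* 0.80, *GCLM* 0.78 and *NQO1* 0.75. *GCLC* stood apart at 0.25, and the first *GSTP1* row (-0.68) and *NFE2L2* (-0.88) ran the other way.

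**Figure D5:**
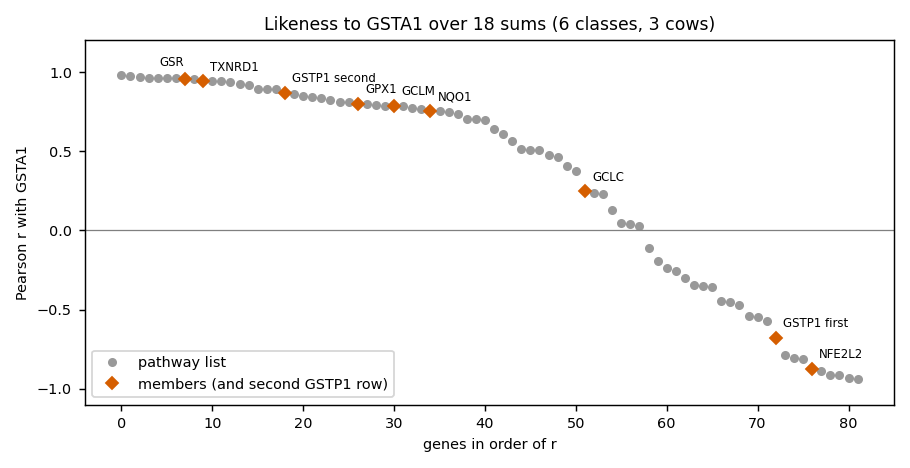
Pearson r with *GSTA1* of the members (diamonds) and the pathway genes tested (circles) over 18 sums, in order of r. *GSR* had 0.96 and *TXNRD1* 0.94, *GCLC* 0.25 and *NFE2L2* -0.88.

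The 5 genes with the highest r were *ABCB6* (0.990), *DYNC1H1* (0.987), *IMPDH1* (0.987), *ATP6V1B1* (0.987) and *CD47* (0.986). ABCB6 is an ATP-binding cassette transporter linked to porphyrins, DYNC1H1 the heavy chain of cytoplasmic dynein, IMPDH1 an enzyme of guanine nucleotide synthesis, ATP6V1B1 a subunit of the vacuolar proton pump and CD47 a membrane protein that signals to phagocytes. A high r did not mean a like size of difference. *ATP6V1B1* was 4.68 ± 0.32 (log2, SE) higher in GJA1+ IGFBP5- than in DLK2+ cells and *DYNC1H1* 0.82 ± 0.09, against 5.95 ± 0.29 for *GSTA1*. *ATP6V1B1* was highest in cow 1 in GJA1+ IGFBP5- cells (0.826, 0.354 and 0.208 UMIs per 10000), where *GSTA1* was highest in cow 3.

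A wider list of 88 genes in 10 roles, chosen with earlier results of these data known, placed the members among their pathway, and 73 of its genes could be tested. The members themselves are not in this list or in its counts. In GJA1+ IGFBP5- against DLK2+ cells 34 were called higher and 10 lower, with a median log2 difference of 0.34. In GJA1+ IGFBP5+ cells 43 and 9 were called (median 0.44), in BPIFA2C-rich cells 41 and 9 (0.54) and in IGFBP5+ GJA1- cells 30 and 7 (0.20). The shares of all genes are those given above for the same comparisons. Among GJA1+ cells with and without *IGFBP5*, 3 were higher and none lower. In the *GSTA1* split at 3000 UMIs per cell, 27 were higher and 5 lower of 65 tested in cells without the markers at that depth. In GJA1+ cells 6 and 1 of 50 were called.

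The genes named below for each role were picked for the largest differences among those called in the comparison that is shown, up to 4 per role. For GJA1+ IGFBP5- against DLK2+ cells, to which the role counts below refer, 15.3% of all genes were called higher and 15.1% lower. No role was tested against these shares. Of 12 transferases tested in GJA1+ IGFBP5- against DLK2+ cells, 7 were higher and 2 lower. The microsomal *MGST3* had 21.2, 29.2 and 28.7 UMIs per 10000 in these cells and 4.08, 5.86 and 8.16 in DLK2+ cells, with no overlap and a log2 difference of 2.17 ± 0.12 (SE; edgeR adjusted p = 3.22e-12). *MGST1* (2.01 ± 0.11) and *GSTO1* (1.72 ± 0.11) were higher as well. *GSTA2* was called higher (3.76 ± 0.68), but on 14 UMIs in GJA1+ IGFBP5- cells and 13 in DLK2+ cells, all from cow 2. In that cow it had 0.115 and 0.00746 UMIs per 10000 in the 2 classes. All 5 of the called glutaredoxin and glyoxalase genes were higher, of 6 tested, among them *GLRX* (2.01 ± 0.13), *GLRX5* (1.32 ± 0.11), which takes part in iron-sulfur cluster assembly, the glyoxalase *HAGH* (1.18 ± 0.12) and the mitochondrial *GLRX2* (0.75 ± 0.14).

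Of 11 thioredoxin and peroxiredoxin genes, 7 were higher and 1 lower. *PRDX6* had 9.11, 16.7 and 26.1 UMIs per 10000 in GJA1+ IGFBP5- cells against 3.78, 3.65 and 5.23 in DLK2+ cells, a log2 difference of 1.93 ± 0.24 (SE; edgeR adjusted p = 1.05e-06). *PRDX5* (1.44 ± 0.09) and thioredoxin itself, *TXN* (1.03 ± 0.09), were higher, whereas *TXNIP*, which binds and inhibits thioredoxin, was lower (-0.98 ± 0.12). Of 6 genes of NADPH supply, 4 were higher by small amounts, among them *ME1* (0.62 ± 0.10), *IDH1* (0.51 ± 0.10) and *TALDO1* (0.41 ± 0.13).

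Other roles were split. In glutathione synthesis and turnover 3 of 9 were higher, the gamma-glutamyltransferases *GGT6* (1.28 ± 0.30) and *GGT1* (0.70 ± 0.22) and the cyclotransferase *GGCT* (1.21 ± 0.31), while *GGT7*, called lower, had 1 UMI in GJA1+ IGFBP5- and 88 in DLK2+ cells. *GPX8*, the only peroxidase called of 3 tested, had 3 UMIs against 155. Of 6 haem and iron genes, *HMOX2* (0.68 ± 0.10), *FTH1* (0.53 ± 0.10) and *BLVRB* (0.30 ± 0.09) were higher and none was lower. Of 3 superoxide and catalase genes, *SOD1* was lower (-0.61 ± 0.09).

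Of 8 regulators and partners of NRF2 tested, *CUL3*, the scaffold of the ligase that marks NRF2 for degradation, was higher (0.58 ± 0.14), whereas its RING subunit *RBX1* (-0.45 ± 0.09), the small Maf gene *MAFF* (-1.19 ± 0.22) and *NFE2L1* (-0.48 ± 0.16), a relative of *NFE2L2*, were lower. Of 9 other NRF2-linked enzymes, 4 were higher and 1 lower. *CBR3*, a carbonyl reductase, had 0.862, 1.27 and 1.78 UMIs per 10000 against 0.177, 0.168 and 0.290, a log2 difference of 2.68 ± 0.14 (SE; edgeR adjusted p = 9.84e-13), and its r with *GSTA1* was 0.98. *UGDH* (1.77 ± 0.14) and *OSGIN1* (0.71 ± 0.23) were higher, but *OSGIN1* had ratios of 0.486, 1.82 and 2.08 to DLK2+ cells in cows 1, 2 and 3, so that it was lower in cow 1. *NQO2*, the relative of *NQO1*, was lower (-1.55 ± 0.17), with 1.97, 0.980 and 0.856 UMIs per 10000 against 4.34, 3.59 and 2.85 in DLK2+ cells, and its r with *GSTA1* was -0.94.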

How the data were processed

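Droplet single-cell RNA sequencing (Chromium Single Cell 3' v3) was performed on rumen epithelium of 3 cows. The authors aligned the reads with Cell Ranger 3.1.0 to ARS-UCD1.2, filtered cells on genes, UMIs and mitochondrial share, removed doublets and other cell types, and deposited UMI counts per gene and cell. The authors also deposited natural log values of counts scaled to 10000 UMIs, which gave the row names here. No doublet caller was run again.

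The members and lists were chosen with earlier results of these data known. UMIs were summed per cow and class and tested in R 4.3.3 with edgeR 4.0.16 (TMM, filterByExpr, quasi-likelihood, cow as block, Benjamini-Hochberg over all genes). Simulated data were used to check the fit for GJA1+ IGFBP5- against DLK2+ cells only. In them few genes changed, in that class alone, and the spread was the same for all genes. The check does not cover the other comparisons or the splits. The cow marks the same animal, and deviations of sums of the same cow had a mean correlation of 0.526 (different cows -0.302). Deviations were taken from the class mean over the 3 cows, which by itself pulls the value for different cows down. Named were all members, the 5 genes most like *GSTA1* and up to 4 called pathway genes per role. These pathway genes were those with the largest absolute log2 difference in GJA1+ IGFBP5- against DLK2+ cells. Of 88 pathway genes, 84 had a row, and 1 that the rule named is not reported here. Alternatives were no block, DESeq2 1.42.0, no low-count filter, each cow left out, gates at 2 UMIs, thinning to 3000 UMIs, 30 *BPIFA2C* UMIs per 10000, no fold limit, the top 5% of UMIs or cells under 2% mitochondrial share left out and, for the splits, no thinning and *GSTA1* at 2 UMIs. Total-UMI scaling and *IGFBP5* at 5 UMIs were added after the data were seen. Intervals and UMI totals cover counting and 3 cows only.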

Additional observations from a re-analysis of the deposited data

Results flagged for a closer look

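The mixed cells, which had *DLK2* together with *GJA1* or *IGFBP5*, entered no comparison, yet several members were above the DLK2+ level in them in each of the 3 cows. This is given as a description of data outside the comparisons and was not tested. Per 10000 UMIs, as means of 3 cows, *GSTA1* had 0.846 in mixed cells and 0.201 in DLK2+ cells, *TXNRD1* 0.166 and 0.105, and *NQO1* 0.212 and 0.175. *GPX1* had 9.52 and 8.36, *GSR* 1.58 and 1.39, and the second *GSTP1* row 6.67 and 5.57. Only members above the DLK2+ level in each cow were picked for this list. *NFE2L2* was below it in each cow, with 1.92, 1.93 and 1.97 in mixed and 2.54, 2.22 and 2.17 in DLK2+ cells. *GCLM*, *GCLC* and the first *GSTP1* row had no common direction over the cows. Mixed cells had a median of 11187 UMIs against 8623 in DLK2+ cells.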

How the results depend on the processing

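With no replicate block the members called fell from 8 to 5 in GJA1+ IGFBP5+, from 8 to 3 in GJA1+ IGFBP5-, from 5 to 1 in IGFBP5+ GJA1- and from 8 to 5 in BPIFA2C-rich cells against DLK2+ cells, and from 5 to 0 in the *GSTA1* split of cells without the markers. The shares of all genes called with no block were 14.7%, 9.09%, 0.633%, 18.7% and 0.187% in this order. *GSTA1* itself was then not called in IGFBP5+ GJA1- cells (2.98, adjusted p = 0.149). Over all genes the calls without the block fell from 5009 to 1533, 3170 to 948, 2233 to 66 and 4086 to 1953, from 68 to 1 among GJA1+ cells, and from 113 to 0 and 1593 to 16 in the splits in GJA1+ cells and in cells without the markers.

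After thinning to 3000 UMIs 5 members were called in BPIFA2C-rich cells, beside 26.8% of all genes. Among GJA1+ cells with and without *IGFBP5*, thinning gave 1 member (0.180% of all genes) and the limit of 5 *IGFBP5* UMIs gave 2 (4.21%). DESeq2 called 3 in the split of cells without the markers, beside 7.85% of all genes. The split of GJA1+ cells on all UMIs called 1, beside 9.71% of all genes. Leaving out 1 cow gave 7 to 8 members in GJA1+ IGFBP5+, 5 to 8 in GJA1+ IGFBP5-, 4 to 5 in IGFBP5+ GJA1- and 7 to 8 in BPIFA2C-rich cells, 2 to 5 in the split without the markers, and 0 in the remaining comparisons. The shares of all genes called were then 34.9% to 45.0%, 20.0% to 26.1%, 10.3% to 21.8%, 28.4% to 34.8% and 10.3% to 15.1% in the same order. Over all genes, thinning gave 1831, 1645, 1049 and 1788 calls against DLK2+ cells and 12 among GJA1+ cells, of fewer genes tested. Among GJA1+ cells all-gene calls were 130 with DESeq2, 304 with no filter, 385 with the limit of 5 UMIs and 6 to 38 without 1 cow. In the splits they were 29 and 671 with DESeq2 and, in GJA1+ cells on all UMIs, 823 of 8475 genes. They were 47 to 49 without cow 3 or cow 1 in the split of GJA1+ cells, and 810 without cow 3 in cells without the markers. Without cow 2 they were 2096 in GJA1+ IGFBP5- and 1075 in IGFBP5+ GJA1- cells. The cause of these changes was not tested.

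Of the single values under the alternatives, 743 kept direction and call, 61 lost a call, 13 gained one and 33 turned sign. None of the 33 was called on either side of the change except the first *GSTP1* row in GJA1+ IGFBP5- cells (0.032 after thinning). *GCLC* turned in GJA1+ IGFBP5+ cells (-0.27 at 5 *IGFBP5* UMIs, -0.062 at 2 UMIs, -0.065 with total UMIs, -1.03 thinned, -0.086 without the top 5% of UMIs and -0.15 to 0.42 without 1 cow), in GJA1+ IGFBP5- cells (-0.052 thinned) and in BPIFA2C-rich cells (0.33 at 30 per 10000, 0.048 with DESeq2, 0.079 at 5 *IGFBP5* UMIs, 0.061 without cells of low mitochondrial share, 0.037 without the top 5%, and -0.17 to 0.23 without 1 cow). *GCLM* turned in IGFBP5+ GJA1- cells (-0.063 with total UMIs, -0.11 to 0.31 without 1 cow) and in the split of GJA1+ cells (0.13 with no filter, 0.054 without the block, 0.46 on all UMIs and -0.15 to 0.099 without 1 cow), as did *NFE2L2* there (0.12 with no filter and -0.14 to 0.082 without 1 cow). The first *GSTP1* row turned after thinning in IGFBP5+ GJA1- cells (0.14). Between GJA1+ cells with and without *IGFBP5*, the first *GSTP1* row (-0.59) and *GSR* (0.018) turned after thinning, *NQO1* without the top 5% (0.030) and without 1 cow (-0.18 to 0.12), and *TXNRD1* at 2 UMIs (-0.26), with total UMIs (-0.10) and without 1 cow (-0.12 to 0.35). With 3 cows and few UMIs of *GCLC*, *TXNRD1* and the first *GSTP1* row, small differences in these genes could not be resolved.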

Other observations

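The other alpha-class transferases did not share the level of *GSTA1*. In all cells *GSTA1* had 53885 UMIs, *GSTA4* 6900, *GSTA2* 315, *GSTA5* 12 and *GSTA3* 1. *GSTA4* was called higher than in DLK2+ cells in GJA1+ IGFBP5+ cells (0.69, edgeR adjusted p = 0.000146), IGFBP5+ GJA1- cells (0.37, 0.0323) and BPIFA2C-rich cells (0.54, 0.0339), but not in GJA1+ IGFBP5- cells (0.47, 0.0689). The symbol *GSTM1* also had 2 rows. In GJA1+ IGFBP5+ cells they had means of 2.02 and 2.33 UMIs per 10000 and in DLK2+ cells 1.22 and 1.23, so unlike the *GSTP1* rows both were higher, while in BPIFA2C-rich cells their means were 1.65 and 1.48.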
